A study of Homo sapiens with 6 samples.

Results

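The 10 genes described here are the transcriptional arm of the Hippo pathway and its best known readouts: the coactivators YAP1 and WWTR1 (the gene of TAZ), the TEAD factors TEAD1, TEAD3 and TEAD4, the kinase gene LATS2, and the target genes CTGF, CYR61, ANKRD1 and AMOTL2. They were chosen by gene symbol, and all 10 of 10 were found among the 74852 genes listed, each in 1 row. All 10 were also among the 18717 genes that averaged 10 normalized counts or more and were tested together. The row of AMOTL2 is shared with the microRNA gene MIR6827, which lies within it. The cells were MDA-MB-231, a human triple negative breast cancer (TNBC) cell line with a mesenchymal phenotype that is known to lack a functional NF2 product. The si-CTRL group (3 libraries) had received a pool of control siRNAs, and the si-NEK2 group (3 libraries) a pool directed at NEK2, a serine/threonine kinase of mitosis. The sample records give 2 transfections with Lipofectamine RNAiMAX and a harvest 24 h after the second, whereas the methods describe the schedule differently. Each group rests on 1 pool of siRNAs in 1 cell line, so that the loss of NEK2 and other effects of the pool cannot be told apart.

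YAP1 and TAZ are coactivators without a DNA-binding domain of their own, and they reach their target genes by binding the TEAD factors, which recognise a short DNA motif. The kinases MST1 and MST2 (genes STK4 and STK3) activate LATS1 and LATS2, which phosphorylate YAP1 and TAZ and so keep them in the cytoplasm or mark them for degradation. CTGF, CYR61 and ANKRD1 are the targets most often read as a measure of this activity, while LATS2 and AMOTL2 are targets whose products act back on the coactivators. The activity of YAP1 and TAZ is set largely by phosphorylation and location, which RNA levels do not show. In breast cancer cells this arm of the pathway is known for its links to a mesenchymal state, growth and migration.

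The reads assigned to genes numbered between 52625492 and 87454509 per library, and 1 read was worth between 0.818 and 1.25 normalized counts. NEK2 itself fell from 3438 ± 229 (mean ± SD, n = 3) to 344.9 ± 54.4 normalized counts (n = 3), a log2 fold change of -3.32 which ranged from -3.42 to -3.19 with any 1 library left out. The first principal component, with 61.7% of the variance, separated the groups. The second, with 16.2%, set si-CTRL replicate 1 at 38.9 apart from the other 5 libraries between -26.1 and 16.9, and this library was the highest control for 8 of the 10 genes and for 40.6% of all genes tested. Results are therefore also given without it. Neither the records nor the methods say whether the replicates were separate cultures or whether both groups were prepared in 1 batch, so that p-values measure only the spread between these libraries, which may be technical. Of the markers of this line, VIM, CD44, CAV1 and EGFR were all measured in every library, with VIM between 134282 and 173162 normalized counts. On the log2 scale CD44 fell by 0.76 (adjusted p = 0.00332, limma), EGFR fell by 0.52 (0.00113) and CAV1 rose by 0.69 (5.46e-05). Without si-CTRL replicate 1 the log2 fold changes were -0.58 for CD44, just under 1.5-fold, -0.47 for EGFR and 0.68 for CAV1. VIM did not pass the test (-0.18, adjusted p = 0.101). Of 6 luminal and receptor markers, ESR1, PGR, EPCAM and CDH1 were below the limit for testing. The others were present, GATA3 between 287 and 542 normalized counts and ERBB2 between 2455 and 4085. ERBB2 rose by 0.53 on the log2 scale (adjusted p = 0.00744), and by 0.68 without si-CTRL replicate 1.

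The sequences upstream of the start site are shown first because CTGF and ANKRD1 carry repeats of the TEAD core motif. F3 (tissue factor, the initiator of blood clotting) is a target gene described below that has no TEAD core in the stretch shown. Each run is the 250 bases before the annotated start site, 5′ to 3′ on the strand of the gene, from RefSeq on GRCh38.p14. Capitals mark the TEAD core GGAATG and the AP-1 motif TGANTCA, both searched on both strands.
CTGF (chr6:131951373-131951622, minus strand): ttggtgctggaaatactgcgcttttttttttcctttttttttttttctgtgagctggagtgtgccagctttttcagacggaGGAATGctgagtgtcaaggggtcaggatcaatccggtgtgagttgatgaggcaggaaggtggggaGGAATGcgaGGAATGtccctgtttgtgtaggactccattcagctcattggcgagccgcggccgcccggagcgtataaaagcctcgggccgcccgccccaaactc
ANKRD1 (chr10:90921088-90921337, minus strand): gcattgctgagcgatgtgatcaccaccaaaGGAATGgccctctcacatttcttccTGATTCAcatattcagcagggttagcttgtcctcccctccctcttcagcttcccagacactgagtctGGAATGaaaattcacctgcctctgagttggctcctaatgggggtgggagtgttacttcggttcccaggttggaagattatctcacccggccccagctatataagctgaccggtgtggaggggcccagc
F3 (chr1:94541760-94542009, minus strand): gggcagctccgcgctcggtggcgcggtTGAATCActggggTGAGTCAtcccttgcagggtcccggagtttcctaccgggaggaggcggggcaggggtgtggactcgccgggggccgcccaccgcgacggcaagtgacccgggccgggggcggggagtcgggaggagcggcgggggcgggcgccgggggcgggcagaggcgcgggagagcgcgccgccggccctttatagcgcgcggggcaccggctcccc
Upstream of CTGF the TEAD core stood 3 times, its first base at -169, -104 and -95 from the start site, and upstream of ANKRD1 it stood 2 times, at -220 and -128, with 1 AP-1 match between them at -195. The run of F3 held 2 AP-1 matches, at -223 and -210, and no TEAD core. Among 35116 promoter windows of the same length, 11.9% held at least 1 TEAD core, 0.940% at least 2 and 29 windows (0.0826%) at least 3, while 6.57% held an AP-1 match and 0.402% at least 2. Of the 10 genes, 7 had an entry, the others being TEAD1, TEAD4 and CYR61, and YAP1 also held a TEAD core, 1 match at -162. WWTR1, TEAD3, LATS2 and AMOTL2 had no match in this window, which says only that these letters are not in these 250 bases. The CArG box bound by serum response factor, was found upstream of 0 of the 7.

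**Figure D1:**
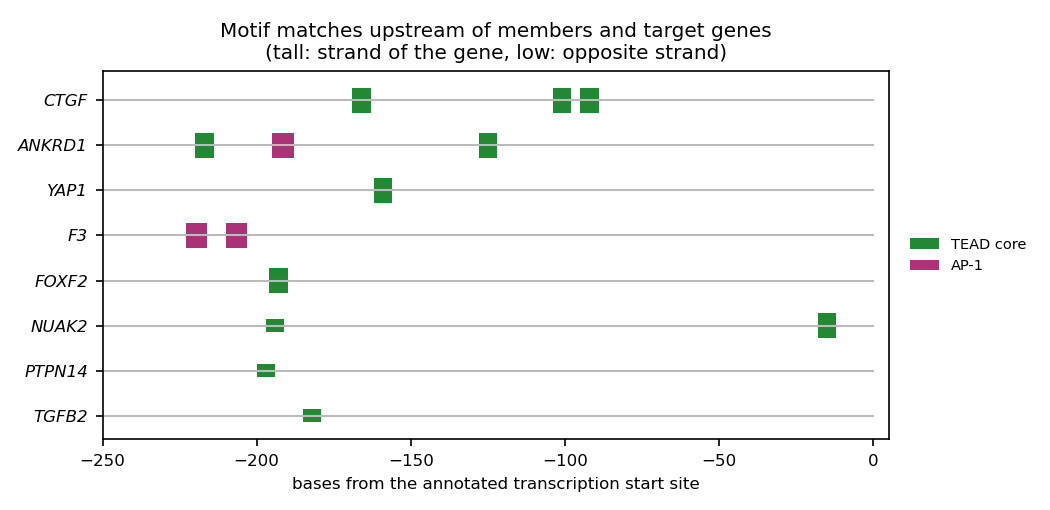
Motif matches in the 250 bases upstream of the start site of members and target genes with a match; the horizontal axis gives bases from the annotated start site. Green boxes are TEAD core matches and purple boxes AP-1 matches, tall on the strand of the gene and low on the other strand. CTGF holds 3 TEAD cores and ANKRD1 2, whereas F3 holds 2 AP-1 matches only.

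Upon silencing of NEK2, CTGF, CYR61, WWTR1 and TEAD4 fell, LATS2 rose, and YAP1, TEAD1, TEAD3, ANKRD1 and AMOTL2 did not pass the test. The changes ranged from a log2 fold change of -1.02 for CTGF to 0.32 for LATS2, with a median of -0.15 over the 10 genes, compared with 0.01 over all genes tested. A gene is said to have risen, fallen or changed at an adjusted p of at most 0.05 (limma, Benjamini-Hochberg adjustment over all 18717 genes). It is called regulated where the unadjusted p did not exceed 0.05 and the fold change was 1.5 or more. These cut-offs are those of the study, but the test here was limma on the deposited values, so the genes called need not be the same. Of the 10 genes, 5 changed, 4 lower and 1 higher, compared with 43.1% of all genes tested, of which 21.8% were higher and 21.3% lower. CTGF and WWTR1, both lower, were also regulated, 2 of 10 beside 22.5% of all genes, which split into 8.23% higher and 14.3% lower. The groups did not overlap in 5 of the 10 genes, compared with 55.0% of all genes tested. The shares of members were thus near those of the transcriptome. When every library was scaled to the same total, which moved the median of all genes to -0.12, 0 of the members were higher and 5 lower, as the call of LATS2 was lost and YAP1 passed.

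**Figure D2:**
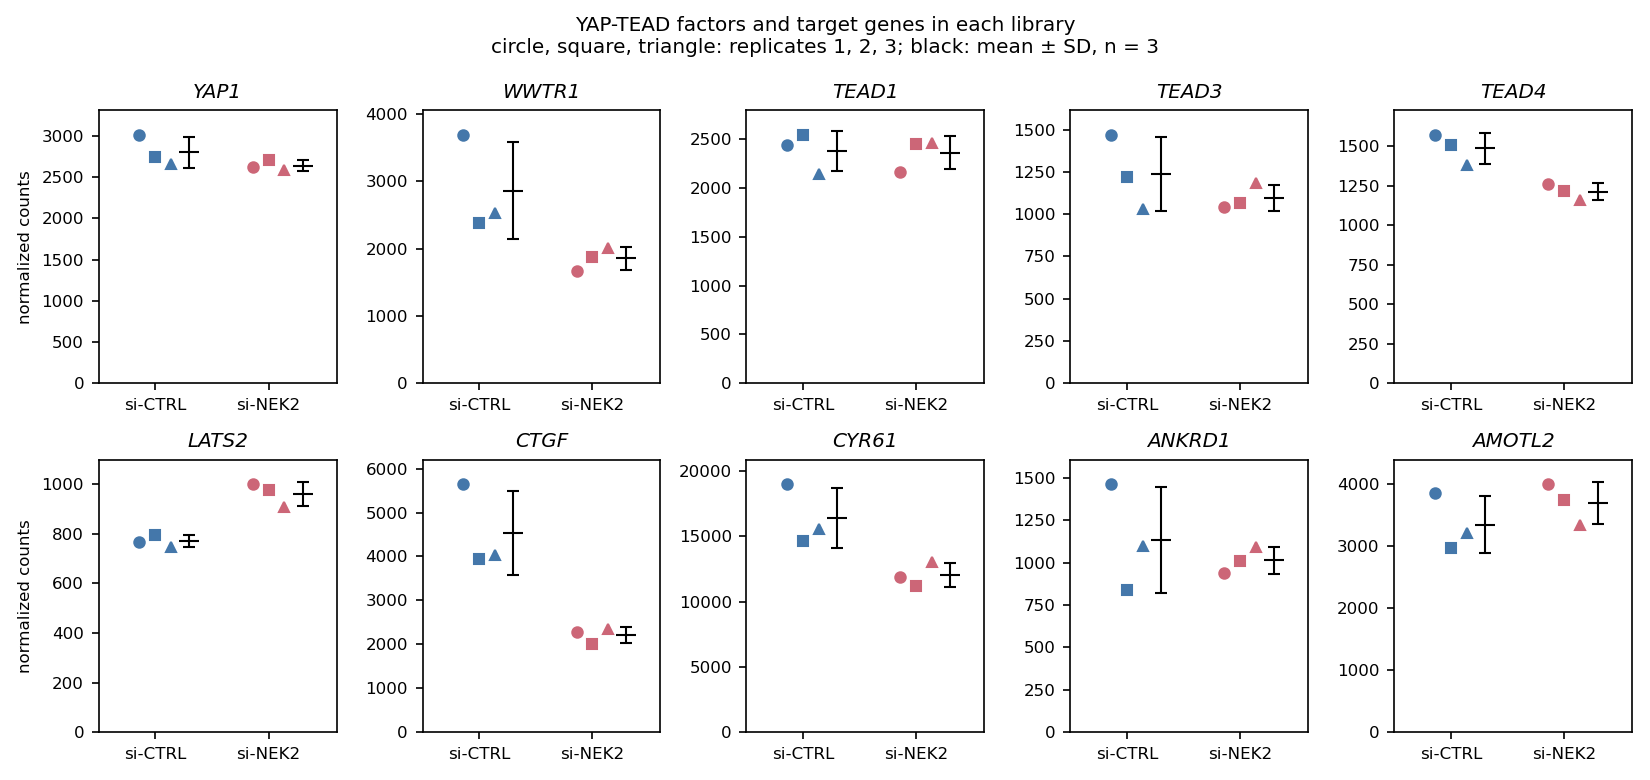
Normalized counts (vertical axes, each starting at 0) of the 10 genes in the 3 si-CTRL (blue) and 3 si-NEK2 (red) libraries. Circles, squares and triangles are replicates 1, 2 and 3, and black bars give the mean ± SD. The si-NEK2 points lie below all si-CTRL points for WWTR1, TEAD4, CTGF and CYR61 and above them for LATS2, and si-CTRL replicate 1 is the highest control in 8 panels.

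**Figure D3:**
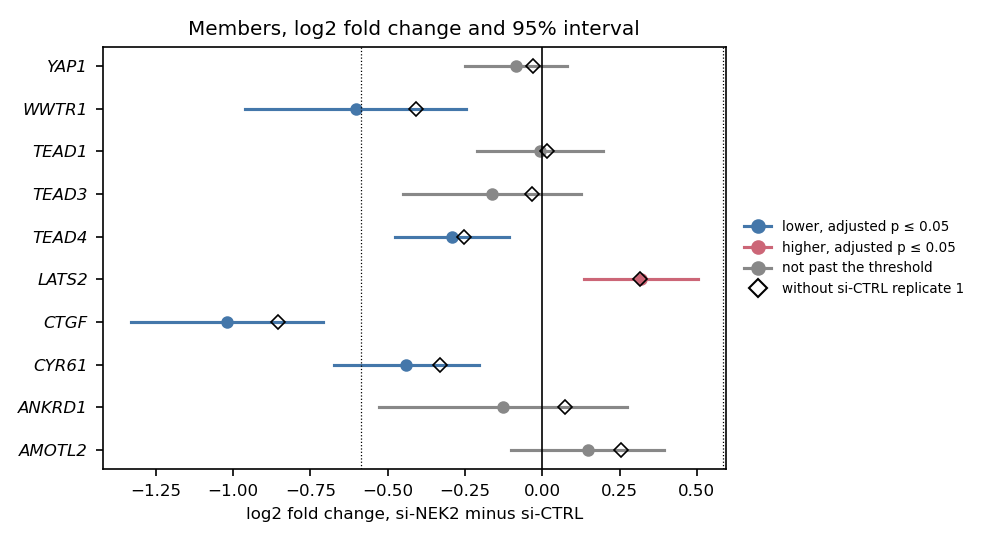
Log2 fold change of the 10 genes, si-NEK2 minus si-CTRL, with 95% intervals. Blue and red mark genes lower and higher at an adjusted p of at most 0.05, grey the others, open diamonds the value without si-CTRL replicate 1, and dotted lines a 1.5-fold change. CTGF lies at -1.02 and stays at -0.85 without that library, whereas WWTR1 moves from -0.60 to -0.41, inside the dotted line.

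Of the coactivators, WWTR1 fell and YAP1 did not pass the test. YAP1 (GSHG0005207 in the deposited annotation, hg19 chr11:101981181-102104154) was present at 3013, 2744 and 2656 normalized counts in si-CTRL replicates 1, 2 and 3 and at 2620, 2715 and 2592 in the si-NEK2 replicates. The groups overlapped, and only si-CTRL replicate 1 stood above all si-NEK2 libraries by more than a few percent. The log2 fold change was -0.08 (SE 0.07, 95% interval -0.25 to 0.08, adjusted p = 0.385), an interval that leaves out a 1.5-fold change in either direction. With equal totals it was -0.21 and passed the test (adjusted p = 0.0418).

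WWTR1, whose product TAZ is the paralog of YAP1 and binds the same TEAD factors, was the coactivator that fell. Its row (GSHG0022144, hg19 chr3:149235022-149454501) held 3686, 2374 and 2525 normalized counts in the si-CTRL libraries and 1667, 1874 and 2014 in the si-NEK2 libraries. Every si-NEK2 library was below every si-CTRL library, and si-CTRL replicate 1 was far above the other controls. The mean went from 2862 ± 718 to 1852 ± 175, leaving 64.7%, a log2 fold change of -0.60 (SE 0.16, 95% interval -0.96 to -0.25, adjusted p = 0.0136). Without si-CTRL replicate 1 the fall was smaller than 1.5-fold, at -0.41 on the log2 scale (adjusted p = 0.00243), and without si-NEK2 replicate 1 it was -0.53 and missed the threshold (adjusted p = 0.0589). The antisense gene WWTR1-AS1, which overlaps WWTR1, had a mean of 146 normalized counts, or 6.20% of WWTR1, and strand handling in the counting is not given in the sources used here.

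The ratio of WWTR1 to YAP1, examined after their values were seen, was 1.22, 0.865 and 0.951 in the si-CTRL libraries and 0.636, 0.690 and 0.777 in the si-NEK2 libraries. A ratio within a library does not depend on how libraries are scaled. All 3 si-NEK2 values were below all 3 si-CTRL values, with a log2 difference of -0.52 (exact permutation test, two-sided, p = 0.1, the smallest possible with 3 libraries against 3).

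Of the TEAD factors, which share the DNA-binding TEA domain, TEAD4 fell and TEAD1 and TEAD3 did not pass the test. Whether any reads were split between these related genes was not tested. TEAD4 (GSHG0006387, hg19 chr12:3068478-3149842) had 1571, 1510 and 1379 normalized counts in si-CTRL and 1264, 1215 and 1158 in si-NEK2. The groups did not overlap, although the nearest libraries, si-CTRL replicate 3 and si-NEK2 replicate 1, were close. The log2 fold change was -0.29 (SE 0.08, 95% interval -0.48 to -0.11, adjusted p = 0.018), a fold change of 1.23. The call was lost without si-CTRL replicate 2 (adjusted p = 0.0526), si-NEK2 replicate 2 (0.0656) or si-NEK2 replicate 3 (0.07), with log2 fold changes of -0.28, -0.30 and -0.26.

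TEAD1 (GSHG0004652, hg19 chr11:12695969-12966283) had 2441, 2543 and 2146 normalized counts in si-CTRL and 2169, 2455 and 2467 in si-NEK2. The groups were interleaved, and the log2 fold change of -0.01 (SE 0.09, 95% interval -0.21 to 0.20, adjusted p = 0.959) changed sign with the scaling. TEAD3 (GSHG0026550, hg19 chr6:35441376-35464861) had 1467, 1218 and 1031 normalized counts in si-CTRL and 1042, 1065 and 1185 in si-NEK2. Here si-CTRL spanned a wider range than si-NEK2 and enclosed it, with a log2 fold change of -0.16 (SE 0.13, 95% interval -0.45 to 0.13, adjusted p = 0.337) that was -0.03 without si-CTRL replicate 1. An unnamed gene that overlaps TEAD3 had 14.0% of its mean. TEAD2, the remaining family member, went from 1548 ± 224 to 1182 ± 94.1 normalized counts and fell by 0.38 on the log2 scale (SE 0.11, adjusted p = 0.0251), a call that was lost in 5 of 18 alternatives, among them leaving out si-CTRL replicate 2 (-0.38, adjusted p = 0.0565), si-NEK2 replicate 1 (-0.34, 0.091) or si-NEK2 replicate 2 (-0.36, 0.0905). The ratio of TEAD4 to TEAD1 was 0.627 ± 0.0286 in si-CTRL and 0.516 ± 0.0597 in si-NEK2 without overlap (log2 difference -0.29, exact permutation p = 0.1, two-sided, the smallest possible). It was not planned before the values were seen.

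CTGF, a secreted matricellular protein of the CCN family and the most used YAP-TEAD readout, had the largest change of the 10 genes. Its row (GSHG0026909, hg19 chr6:132269213-132272518) held 5638, 3944 and 4025 normalized counts in si-CTRL and 2287, 1999 and 2344 in si-NEK2. The groups were well apart, since the highest si-NEK2 library was far below the lowest control, and si-CTRL replicate 1 was again the highest. The mean went from 4536 ± 956 to 2210 ± 185, leaving 48.7%, a log2 fold change of -1.02 (SE 0.14, 95% interval -1.33 to -0.71, adjusted p = 0.0005). Without si-CTRL replicate 1 the log2 fold change was -0.85 (adjusted p = 1.42e-05), and over all 18 alternatives it lay between -1.15 and -0.85, with an adjusted p of at most 0.00606.

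CYR61, its closest relative among the CCN proteins and also secreted, fell too. Its row (GSHG0000668, hg19 chr1:86045883-86049650) held 18949, 14630 and 15560 normalized counts in si-CTRL and 11853, 11187 and 13023 in si-NEK2. All si-NEK2 libraries were below all controls, the nearest being si-NEK2 replicate 3 and si-CTRL replicate 2. From 16380 ± 2273 to 12021 ± 929, 73.4% was left, a log2 fold change of -0.44 (SE 0.10, 95% interval -0.67 to -0.21, adjusted p = 0.00833). It was -0.33 without si-CTRL replicate 1 (adjusted p = 0.00219), and lay between -0.58 and -0.33 over the alternatives. The ratio of CTGF to CYR61 was 0.298, 0.270 and 0.259 in si-CTRL and 0.193, 0.179 and 0.180 in si-NEK2. It was lower in all 3 si-NEK2 libraries, with a log2 difference of -0.58 (exact permutation test, two-sided, p = 0.1), and this ratio was examined after the values were seen.

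ANKRD1, an ankyrin repeat protein of the nucleus and the sarcomere, did not pass the test. Its row (GSHG0004245, hg19 chr10:92671857-92681033) held 1460, 839 and 1099.9 normalized counts in si-CTRL and 936, 1010.4 and 1090.4 in si-NEK2. All 3 si-NEK2 libraries lay within the range of the controls, which differed among themselves more than for any other of the 10 genes relative to the mean. The log2 fold change was -0.13 (SE 0.18, 95% interval -0.53 to 0.27, adjusted p = 0.593) and became 0.07 without si-CTRL replicate 1 (adjusted p = 0.635). The upstream runs of CTGF and ANKRD1 printed above both carry repeated TEAD cores. The ratio of CTGF to ANKRD1 was 4.07 ± 0.553 in si-CTRL and 2.19 ± 0.235 in si-NEK2, without overlap (log2 difference -0.89, exact permutation p = 0.1, two-sided, the smallest possible). This ratio was not planned before the values were seen, and it follows from the separate changes of CTGF and ANKRD1.

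Of the targets that act back on the coactivators, LATS2 rose and AMOTL2 did not pass the test. LATS2 (GSHG0008345, hg19 chr13:21547178-21635722), the kinase that phosphorylates YAP1 and TAZ, had 765, 796 and 747 normalized counts in si-CTRL and 998, 975 and 908 in si-NEK2. Every si-NEK2 library was above every control, and the controls lay close together. The mean went from 769 ± 24.8 to 960.5 ± 47.0, a log2 fold change of 0.32 (SE 0.08, 95% interval 0.14 to 0.50, adjusted p = 0.012) and a fold change of 1.25. The call was lost with equal totals (0.19, adjusted p = 0.0912) and without si-NEK2 replicate 1 (0.29, 0.0543) or si-NEK2 replicate 2 (0.31, 0.0585). Its paralog LATS1 had a log2 fold change of 0.14 (SE 0.10, adjusted p = 0.302). The ratio of LATS2 to LATS1, not planned before the values were seen, overlapped between the groups (log2 difference 0.18, exact permutation p = 0.3, two-sided).

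AMOTL2 (GSHG0132330, hg19 chr3:134074187-134094259), an angiomotin family scaffold that binds YAP1, had 3858, 2974 and 3208 normalized counts in si-CTRL and 3995, 3751 and 3334 in si-NEK2. The groups overlapped through si-CTRL replicate 1 alone. The log2 fold change was 0.15 (SE 0.11, 95% interval -0.10 to 0.39, adjusted p = 0.312), and without si-CTRL replicate 1 it was 0.25 and passed the test (adjusted p = 0.0214). A gene without a name that overlaps AMOTL2 had 6.67% of the mean of AMOTL2.

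The 10 genes were present at very different levels. In si-CTRL, per kilobase of merged exons (GENCODE v29), CYR61 stood at 6672 ± 926 normalized counts and CTGF at 1939 ± 409, followed by TEAD4 (654 ± 43.1), ANKRD1 (572 ± 158), AMOTL2 (559 ± 76.5), YAP1 (445 ± 29.6), TEAD3 (407 ± 71.8), WWTR1 (340 ± 85.3), TEAD1 (231 ± 20.1) and LATS2 (138 ± 4.44). In this order of levels the controls of TEAD4 and ANKRD1, of ANKRD1 and AMOTL2, of YAP1 and TEAD3 and of TEAD3 and WWTR1 overlapped, while the other neighbours did not. By this measure the transcripts of the secreted CCN proteins were the most abundant of these per kilobase, and that of the kinase gene LATS2 the least. The lengths hold the exons of every annotated isoform and come from another annotation than the counts, so that the order is approximate.

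A wider list of 22 YAP-TEAD target genes, 5 of them members, moved in both directions. In this list 15 genes changed (68.2%, beside 43.1% of all genes), 8 lower and 7 higher, with a median log2 fold change of -0.20 compared with 0.01 over all genes. The list is of well expressed genes, and of all genes averaging 50 normalized counts or more 50.6% changed. The 5 regulated genes were all lower, namely F3, NT5E, CCDC80, RBMS3 and CTGF, and their share of 22.7% was near the 22.5% of all genes, of which 14.3% were lower. The split depended on the scaling, with 11 lower and 3 higher with equal totals and 11 lower and 6 higher with quantile scaling, and 4 were higher without si-NEK2 replicate 1 or without si-NEK2 replicate 3.

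F3 had 7661, 5839 and 6675 normalized counts in si-CTRL and 1442, 1466 and 1595 in si-NEK2, with no overlap and the lowest control far above the highest si-NEK2 library. It fell by 2.16 on the log2 scale (SE 0.10, adjusted p = 4.31e-06), and by 2.06 without si-CTRL replicate 1. NT5E, the ecto-nucleotidase CD73 that makes adenosine at the cell surface, had 12266, 7848 and 10390 normalized counts in si-CTRL and 2506, 2615 and 2772 in si-NEK2. Its log2 fold change was -1.93 (SE 0.14, adjusted p = 2.75e-05), and the controls varied more than the si-NEK2 libraries. CCDC80, a secreted matrix protein, went from 7185 ± 1405 to 3272 ± 186 normalized counts (log2 fold change -1.12, SE 0.12, adjusted p = 0.000195). RBMS3, an RNA-binding protein, went from 607 ± 54.4 to 289 ± 16.8 (-1.06, SE 0.11, adjusted p = 0.000111). Both log2 fold changes were near that of CTGF.

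Among targets that changed by less than 1.5-fold, here chosen after their values were seen, CRIM1, a transmembrane protein that binds bone morphogenetic proteins, rose by 0.44 on the log2 scale (SE 0.06, adjusted p = 0.000682) and the forkhead factor FOXF2 by 0.57 (SE 0.07, adjusted p = 0.000366). FJX1 and the stress-induced gene GADD45A fell, with log2 fold changes of -0.56 (SE 0.09, adjusted p = 0.00106) and -0.47 (SE 0.11, adjusted p = 0.00757). AXL, a receptor tyrosine kinase of mesenchymal cells, had a log2 fold change of -0.20 (SE 0.08, adjusted p = 0.0818), which passed the test with equal totals (-0.33), with quantile scaling (-0.38) and without si-CTRL replicate 3 (-0.28, adjusted p = 0.0172). Of the 22 targets, 16 had an upstream run. Of these, 6 (37.5%, beside 11.9% of all promoter windows) held a TEAD core: CTGF, ANKRD1, FOXF2, NUAK2, PTPN14 and TGFB2, with 2 matches in NUAK2. Of these 6, the last 3 chosen after their values were seen, CTGF fell, FOXF2 rose (0.57) and TGFB2 rose (0.36, adjusted p = 0.0479), a call lost in 12 of 18 alternatives and whichever library was left out, while ANKRD1, NUAK2 (-0.20, adjusted p = 0.262) and PTPN14 (-0.29, adjusted p = 0.0634, past the threshold in 6 of 18 alternatives) did not pass the test. The row of DOCK5 is shared with MIR6876 and PPP2R2A and that of TGFB2 with TGFB2-OT1, so that their reads may come from any of these.

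**Figure D4:**
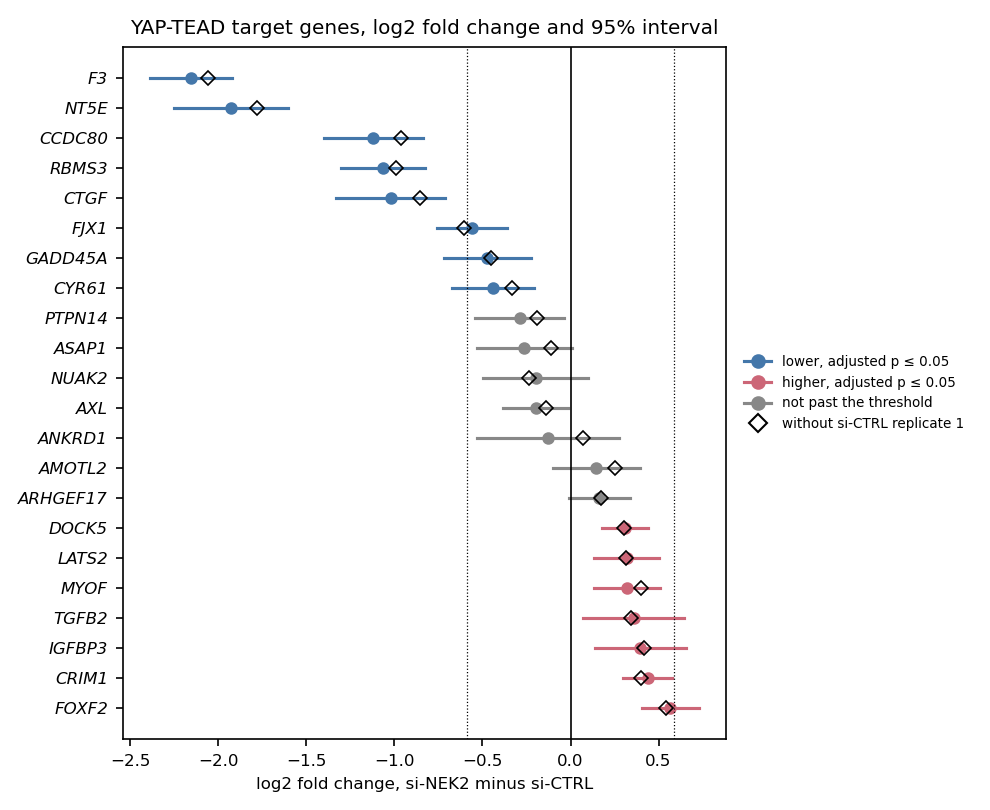
Log2 fold change of the 22 YAP-TEAD target genes, si-NEK2 minus si-CTRL, ordered by size, with 95% intervals. Blue and red mark genes lower and higher at an adjusted p of at most 0.05, grey the others, open diamonds the value without si-CTRL replicate 1, and dotted lines a 1.5-fold change. F3 and NT5E lie near -2, CTGF, CCDC80 and RBMS3 near -1, and the 7 higher genes stay within the dotted line, up to 0.57 for FOXF2.

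Among the partners of the TEAD factors, VGLL3 and VGLL4 moved in opposite directions. In the list of coactivators, TEAD and VGLL factors 8 of 10 genes could be tested, since no library held a read of VGLL1 or VGLL2 (0 reads, a level of up to 3 reads, or 2.46 to 3.75 normalized counts, being possible). Of the 8, 5 changed, 4 lower and 1 higher, beside 43.1% of all genes. The number was 3 without si-CTRL replicate 2, si-NEK2 replicate 1 or si-NEK2 replicate 2, where 39.0%, 33.7% and 31.6% of all genes changed. VGLL4, a cofactor that competes with YAP1 for TEAD binding, had 900, 531 and 717 normalized counts in si-CTRL and 436, 454 and 373 in si-NEK2, a log2 fold change of -0.74 (SE 0.18, adjusted p = 0.0101) that was -0.55, under 1.5-fold, without si-CTRL replicate 1. VGLL3, another TEAD cofactor of the vestigial-like family, had 276, 208 and 186 normalized counts in si-CTRL and 408, 499 and 478 in si-NEK2. It was the only regulated gene of the 51 tested in the 4 YAP-TEAD and Hippo lists that rose (log2 fold change 1.06, SE 0.16, adjusted p = 0.000907), and the groups of neither VGLL3 nor VGLL4 overlapped.

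Of 16 Hippo kinases and adaptors upstream of YAP1, 10 changed, 6 higher and 4 lower, with a median log2 fold change of 0.06, beside 43.1% of all genes and 50.6% of those averaging 50 normalized counts or more. Without si-NEK2 replicate 2 the number was 5 of 16, beside 31.6% of all genes. With equal totals 4 were higher and 5 lower, and with quantile scaling 4 and 4. STK3 and STK4, which encode MST2 and MST1, had log2 fold changes of -0.04 (SE 0.10, adjusted p = 0.784) and 0.19 (SE 0.08, adjusted p = 0.0766), the latter 0.24 without si-CTRL replicate 1 (adjusted p = 0.00665). NF2, the gene of merlin, which brings LATS kinases to the membrane, rose by 0.36 (SE 0.07, adjusted p = 0.00436). Since this line is known to lack a functional NF2 product, this RNA value does not speak for merlin function. Among genes chosen after their values were seen, the MST partner SAV1 rose by 0.30 (SE 0.06, adjusted p = 0.00398), the MST-binding scaffold gene RASSF1 by 0.50 (SE 0.09, adjusted p = 0.00223) and the LATS cofactor MOB1A by 0.37 (SE 0.08, adjusted p = 0.007), the last 0.24 and past the threshold no longer with quantile scaling (adjusted p = 0.0557). The only regulated gene of the 16 was MAP4K4, a kinase that can act on LATS beside MST1 and MST2, at 52954, 39123 and 41842 normalized counts in si-CTRL and 25605, 26076 and 27239 in si-NEK2. The groups were apart, with a log2 fold change of -0.75 (SE 0.11, adjusted p = 0.000661).

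Of 8 scaffolds that bind YAP1 or LATS kinases, 3 changed (37.5%, beside 43.1% of all genes), 1 higher and 2 lower, with a median log2 fold change of -0.11, and with equal totals or quantile scaling 3 were lower and 0 higher. The higher one was AJUBA, whose row is shared with HAUS4 and MIR4707, so that its reads may come from any of them, and its call (0.30, adjusted p = 0.0417) was lost in 10 of 18 alternatives, among them leaving out si-CTRL replicate 3, si-NEK2 replicate 1 or si-NEK2 replicate 2. The regulated genes were PTPN21 and AMOTL1. PTPN21, a FERM-domain phosphatase related to PTPN14, had 949, 963 and 1082 normalized counts in si-CTRL and 223, 268 and 277 in si-NEK2, and its log2 fold change of -1.96 (SE 0.11, adjusted p = 8.55e-06) was the largest of this list. AMOTL1, the paralog of AMOTL2 in the angiomotin family, had 794, 584 and 627 normalized counts in si-CTRL and 387, 371 and 458 in si-NEK2. It fell by 0.71 on the log2 scale (SE 0.14, adjusted p = 0.00322), and without si-CTRL replicate 1 by 0.58, just under 1.5-fold. The groups did not overlap for either gene. Over the 4 lists together, each gene once, 32 of 51 genes tested changed (62.7%), 14 higher and 18 lower. This stood beside 43.1% of all genes and 50.6% of those averaging 50 normalized counts or more. In these lists 11 genes were regulated, 1 higher and 10 lower. The regulated genes were 21.6% of those tested, near the 22.5% of all genes.

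**Figure D5:**
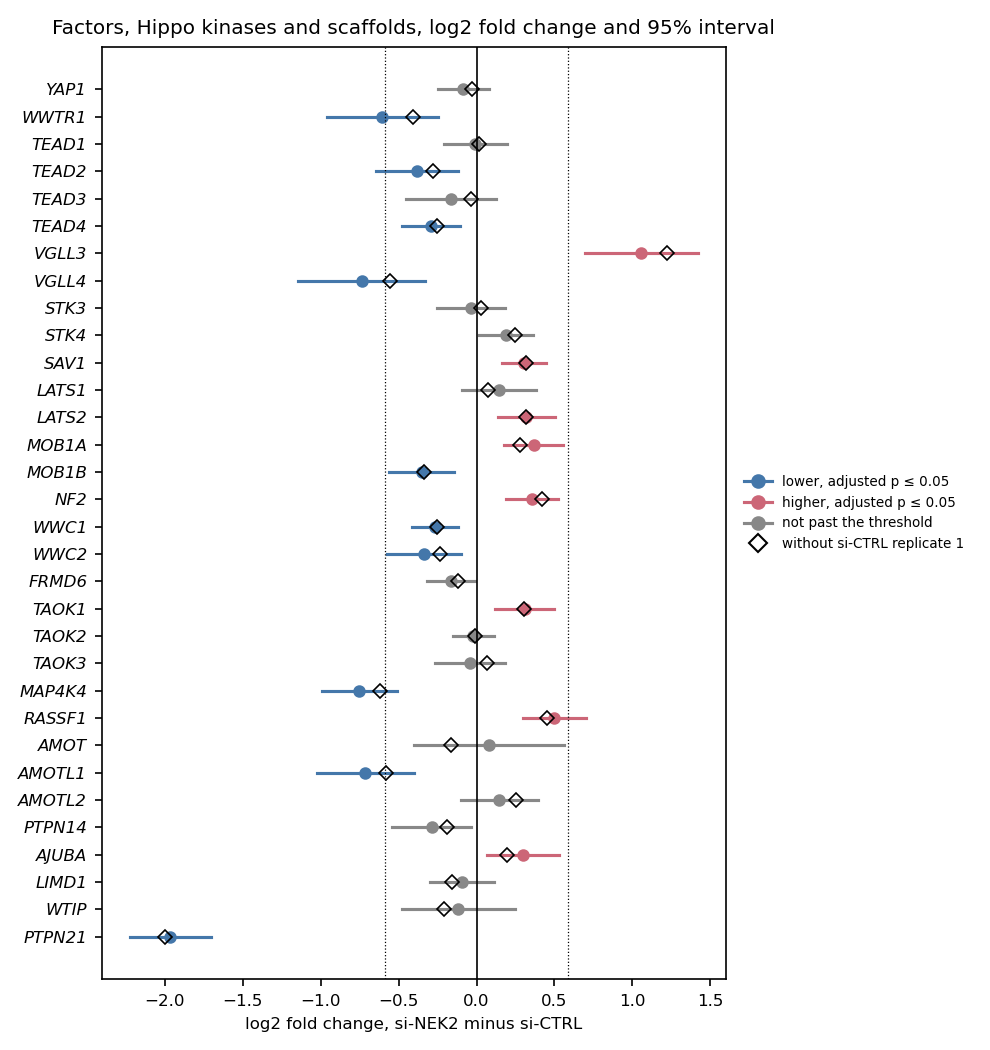
Log2 fold change of the tested coactivators, TEAD and VGLL factors, Hippo kinases and adaptors, and scaffolds, si-NEK2 minus si-CTRL, with 95% intervals; colours, diamonds and dotted lines are as for the target genes. PTPN21 lies near -2 and VGLL3 near 1, while most kinases and adaptors stay within the dotted lines.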

How the data were processed

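PolyA RNA-seq libraries of MDA-MB-231 cells (3 si-CTRL, 3 si-NEK2) were grouped by the sample records. The deposited signal, here called normalized counts, is reads per gene over a DESeq2 size factor for each library, which the authors made with Human FAST DB v2016_1 annotation. The submitters' processing notes name STAR 2.4.0, SAMtools, Picard, FastQC, DESeq2 and hg19. The counter and its handling of strand are not given in the sources used here. All deposited values were whole multiples of 1 read (100% within 0.05 read), so that reads could be recovered. Floors of 3 reads cover counting error only, whereas the 95% intervals are from limma and hold the spread between libraries.

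Genes averaging 10 normalized counts or more (18717 of 74852) were tested with limma 3.58.1 in R 4.3.3 (lmFit, eBayes with trend) on log2(value + 1), with Benjamini-Hochberg adjustment over all of them. Fold changes on this scale understate those of low genes. No other test was run across genes, and the method was tested on simulated data. Named are the 10 members, from each list up to 5 genes per direction with the largest change (mean of at least 50, adjusted p of at most 0.05, fold change of at least 1.5), LATS1, STK3, STK4, TEAD2, VGLL4, NF2 and AXL whatever their values, and the 3 genes most like YAP1 and like CTGF. The members and lists were chosen with earlier results of these data known. Exact permutation tests of ratios, none of them planned before the values were seen, used numpy 2.4.6. The alternatives changed the pseudocount (0.1 or 5), the filter (none, or a mean from 50 up) and the scaling (quantile, upper quartile, equal total), dropped the trend or 1 library at a time, added a replicate block, or used edgeR 4.0.16 (quasi-likelihood, also with filterByExpr) or DESeq2 1.42.0 on recovered reads.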

Additional observations from a re-analysis of the deposited data

How the results depend on the processing

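Of the 180 values of the 10 genes under 18 alternatives, 166 kept their direction and their side of the threshold, 7 lost the call, 2 gained it and 5 changed sign. The number of members that changed lay between 3 and 6 when 1 library was left out, with 3 without si-NEK2 replicate 1 or si-NEK2 replicate 2, and the number of regulated members between 1 and 2, with 1 without si-CTRL replicate 1 or si-NEK2 replicate 1 and 1 with upper quartile scaling. With 1 library left out, the list of coactivators, TEAD and VGLL factors had 3 to 5 changed genes, the Hippo kinases and adaptors 5 to 11, and the targets 4 to 7 higher genes, which were 3 with equal total scaling. The 5 values that changed sign were 4 of TEAD1 and 1 of ANKRD1, and that of STK3, named beside the members, changed sign in 2 alternatives: TEAD1 (log2 fold change 0.029 with upper quartile scaling and -0.079 to 0.054 with a library left out), ANKRD1 (-0.33 to 0.073) and STK3 (0.016 with quantile scaling and -0.090 to 0.027). The cause was not tested. NEK2 stayed between -3.45 and -3.19.

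Deviations of replicates with the same number had correlations of -0.09, 0.05 and -0.15, and those with different numbers lay between -0.12 and 0.18. With 3 libraries in each group, such values cannot tell whether the libraries were prepared in pairs. With the replicate number as a block, 5 members changed and 2 were regulated, as without it, the 5 lists, the one of serum response factor targets included, held 35 changed genes instead of 39, and 6883 of all genes tested (36.8%) changed. Replicates differed beyond counting error (chi-square per gene of 9.17 to 79.8 between libraries of 1 group). This is a mean over the genes tested, and whether depth limits the values of single genes was not tested.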

Other observations

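Genes driven by serum response factor and its MRTF coactivators, which share CTGF and CYR61 as readouts with YAP-TEAD in many cells, also moved both ways. Of 12 genes 7 changed, 2 higher and 5 lower, with a median log2 fold change of -0.20, beside 43.1% of all genes that changed (50.6% of those averaging 50 normalized counts or more), and with equal totals 1 was higher and 7 lower. TAGLN, an actin-binding protein of contractile cells, fell by 1.06 (SE 0.15, adjusted p = 0.00072, limma), whereas MYL9, a myosin light chain, rose by 0.81 (SE 0.09, adjusted p = 0.000186). The CArG box was found in 1.16% of all promoter windows and upstream of 4 of the 10 genes of this list that had an entry.

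The genes whose levels over the 6 libraries were most like those of YAP1 among 12101 compared were CEP162 (Pearson r = 0.986), ZNF791 (0.985) and ASAH2B (0.985), and those most like CTGF were ERN1 (0.999), NLGN2 (0.998) and CKAP4 (0.998). These are descriptions over 6 libraries in 2 groups, and each r contains the difference between the groups and the position of si-CTRL replicate 1.

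Among markers of other cells, PTPRC, CD3E, PECAM1 and CDH5 were at 42.5 normalized counts or less in every library. COL1A1, however, lay between 134168 and 181387 normalized counts, while COL1A2, its usual partner in type I collagen, lay between 32.5 and 86.7. PDGFRB lay between 652 and 776.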
